A study of Mus musculus with 6 samples.

Results

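The step from 3 to 5 dpi, days as the labels count them, belongs to a Tet3 conversion experiment in which fibroblasts are moved from an intermediate medium to a neuronal one. It was read as the log2 value of each probe on the 5 dpi array minus its log2 value on the 3 dpi array. Probes well above background on at least 1 of the 2 arrays were kept, which left 34038 of 39429 probes (86.3%). They stand for 18566 of the 20655 genes that could be named, 17702 of them above background on both arrays and 864 on only 1. Mouse embryonic fibroblasts (MEF) came from ICR embryos at E13.5 and were given adenoviral supernatants with polybrene for 8 hours on 2 successive days, then an intermediate low-glucose medium with 5% serum. On days 3 and 5 counted from the second infection, part of the medium was replaced with neuronal medium holding 20 μM forskolin. The 5 dpi and 3 dpi cultures received the same supernatants by the protocol, and the labels call both induced neurons. The sources used here give neither the day from which dpi is counted nor whether either culture was taken before or after an exchange of medium. The series also holds 1 array each of untreated MEF, of cells at 1 and 7 dpi, and of primary neurons from E13.5 embryos. No group is labelled as given a virus without Tet3, so infection, Tet3, medium, forskolin and time cannot be told apart across this interval. Each group is 1 array, so no difference below could be tested, and none has a spread between cultures.

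Tet3 is a dioxygenase that oxidises 5-methylcytosine in DNA and opens the way to its removal. Forskolin activates adenylyl cyclase, which raises cAMP, and through protein kinase A and the factor CREB this induces genes such as Sik1, Nr4a2 and the cAMP-degrading phosphodiesterases. Serum carries lipoprotein cholesterol, and the genes of sterol synthesis are driven by the factor SREBP2 when cell cholesterol is low and are turned down when it is plentiful.

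A value is the log2 signal of a probe relative to the 75th percentile of its array, so 0 is that percentile, and levels of different probes say nothing about the relative abundance of their genes. Levels are given with the array they were read on; a number without an array, or with higher or lower and no fold, is the log2 difference of 5 dpi minus 3 dpi. The 5 dpi array had 84.3% of probes well above background and the 3 dpi array 83.3%. Both were read in the same scan, with 7 dpi and neurons, whereas MEF and 1 dpi were read in another, and no spot was saturated. The error model of the scanner gave a median error of 0.204 for a log2 difference, which covers the array and not the cultures. The median difference over all kept genes was -0.0035, and all but the outermost 5% at each end of the measured differences lay between -0.92 and 1.27. In these bulk cultures fewer cells of a type and less RNA per cell cannot be told apart.

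The 3 Tet3 probes did not give the same answer. The brightest lay at -0.22 in MEF, 1.13 at 1 dpi, 1.74 at 3 dpi, 2.57 at 5 dpi, 0.07 at 7 dpi and -0.72 in neurons, a step of 0.83 or 1.78-fold between 3 and 5 dpi. The next was at 0.26 at 5 dpi against -1.13 at 3 dpi, a step of 1.40 or 2.63-fold; it was seen at 1 dpi too, below its 3 dpi value, but was not well above background in MEF, at 7 dpi or in neurons. The last differed by 0.04 between 5 and 3 dpi and lay between -3.64 and -2.27 on all 6 arrays. The first 2 of these probes were thus highest at 5 dpi. Which of these probes can see the viral transcript was not tested, since the probe sequences were not used here. Tet1 was 1.09 higher by its brighter probe and 0.24 by the other, and Tet2 was 0.78 and 0.89 higher by its probes. In the list of Tet, glycosylase and DNA methylation genes 3 of 21 kept members passed 2-fold upwards and 1 downwards, beside 8.08% and 4.55% of all kept genes. They were Mbd1, a methyl-CpG reader (difference 1.72), Tet1, the de novo methyltransferase Dnmt3a (1.07), and, lower, the maintenance factor Uhrf1 (-1.11).

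Most genes differed little. Of the 18566 kept genes, 1501 passed 2-fold upwards at 5 dpi (8.08%) and 845 passed it downwards (4.55%), so that 64.0% of the genes past 2-fold were higher. At 4-fold the counts were 385 higher (2.07%) and 193 lower (1.04%). These shares are the background for every list count below. Dim genes passed the threshold more often, with 606 higher and 276 lower among the 4642 genes of lowest level, against 204 higher and 155 lower among the 4642 brightest. Of 574 genes past 2-fold that had several kept probes, 107 had a probe of the opposite sign. Among genes named below as past 2-fold, Acly, Axin2, Col8a2, Pde4d, Peg3, Prkcb, Srebf2, Uhrf1 and Zim1 had another probe of the same sign that stayed under 2-fold.

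**Figure D1:**
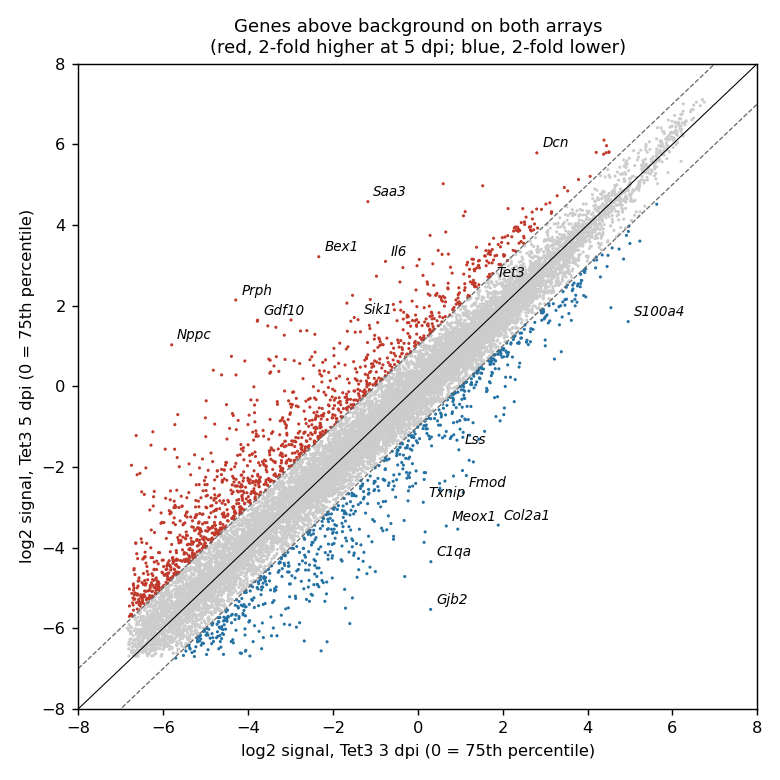
Log2 signal of each gene well above background on both arrays, Tet3 5 dpi on the vertical axis against Tet3 3 dpi on the horizontal axis, with 0 at the 75th percentile of the array, a solid line of equality and dashed lines at 2-fold. Most points lie within the dashed lines (87.4% of kept genes are within 2-fold), and the named genes lie far from the line except Tet3, at 2.57 at 5 dpi against 1.74 at 3 dpi.

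The gene furthest up with signal on both arrays was Nppc, which encodes C-type natriuretic peptide. It lay at -0.51 in MEF, -4.31 at 1 dpi, -5.80 at 3 dpi, 1.03 at 5 dpi, 0.73 at 7 dpi and -0.12 in neurons, so the step of 6.83 (114-fold) set out from the lowest of the 6 arrays. Next came Prph, the intermediate filament peripherin of peripheral neurons, then Saa3, an acute-phase serum amyloid, and Bex1, a small protein of neurons. Gdf10, a secreted factor of the TGF-beta family, was at 1.64 at 5 dpi against -3.78 at 3 dpi, and had been at 1.66 in MEF. Alpl, the tissue-nonspecific alkaline phosphatase, was at 1.50 at 5 dpi against -3.54 at 3 dpi. Dio2, the deiodinase that activates thyroid hormone and a known cAMP-induced enzyme, was at 0.28 at 5 dpi against -4.62 at 3 dpi. The chloride channel Ano2, the cytochrome oxidase isoform Cox8b and R3hdml were 5.42, 5.22 and 5.13 higher. Pappa2, a protease of IGF-binding proteins, Wdr86, Steap4, a metalloreductase, and Spink6 were 4.63 to 4.83 higher, though the other probe of Pappa2 differed by 2.11. Among the 20 genes furthest up, 4 were far higher by 1 probe only while their other probe differed by at most 1.07: Kcne1l (5.40 and 1.07), B3gat1 (5.11 and 0.22), Shisal1 (4.95 and 0.45) and Adamts8 (4.70 and 0.08). Of these other probes only that of Kcne1l passed 2-fold. Gabra3, a GABA-A receptor subunit, was 4.78 higher by its brighter probe and 1.43 by the other.

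Of the genes above background at 5 dpi and not at 3 dpi, Folh1, the folate hydrolase also called PSMA, was at least 216-fold higher than at 3 dpi. It lay at -0.28 in MEF, -1.08 at 1 dpi, 0.91 at 5 dpi, 3.35 at 7 dpi and -0.14 in neurons, so that 3 dpi was the single array on which it was not above background. Reg3g, a secreted lectin, lay at 0.89 in MEF, 1.77 at 1 dpi, 0.36 at 5 dpi and 4.13 at 7 dpi, and was at least 147-fold higher at 5 dpi than at 3 dpi. At 3 dpi and in neurons it was not above background. The placental prolactin-family gene Prl8a8 was at least 104-fold higher and the epithelial factor Elf3 at least 52.8-fold higher.

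Downward, the furthest were Gjb2, which encodes the gap junction protein connexin 26, and Col2a1, the collagen of cartilage. Gjb2 lay at -3.89 in MEF, -3.44 at 1 dpi, 0.30 at 3 dpi, -5.53 at 5 dpi, -6.21 at 7 dpi and -4.68 in neurons, and was 57.2-fold lower at 5 dpi than at 3 dpi. Col2a1 lay at -3.02, -4.82, 1.90, -3.44, -5.35 and -1.88 on the same arrays in that order and was 40.5-fold lower. Both were high on the 3 dpi array alone. Also among the 20 furthest down, C1qa, C1qc, Cd72, Stab1, Folr2, Cyth4, Aif1, Myo1f, Spn, Vav1 and Ms4a7 are genes of macrophages or other blood cells, with differences from -4.66 to -3.36, though the other probe of Spn differed by only -0.39. Meox1, a homeobox factor of the somite, lay at -0.62 in MEF, 0.64 at 1 dpi and 0.67 at 3 dpi, and at -3.47 at 5 dpi and -4.76 at 7 dpi. The matrix proteins Fmod (fibromodulin), Thbs4 (thrombospondin 4) and Coch (cochlin) were 3.71, 3.39 and 3.60 lower on the log2 scale, the chemokine Cxcl9 was 3.36 lower and the keratinocyte envelope gene Lce1h 3.80 lower. Above background at 3 dpi and not at 5 dpi were Gldn (gliomedin), at least 37.7-fold lower at 5 dpi, the endothelial sialomucin Emcn, at least 26.9-fold lower, Fam180a, Dock8 and the uroplakins Upk1b and Upk3b. Among these Gldn had already been at -1.47 at 1 dpi against -1.50 at 3 dpi, and Dock8 was higher in MEF, at -0.79, than at 3 dpi, at -3.06.

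**Figure D2:**
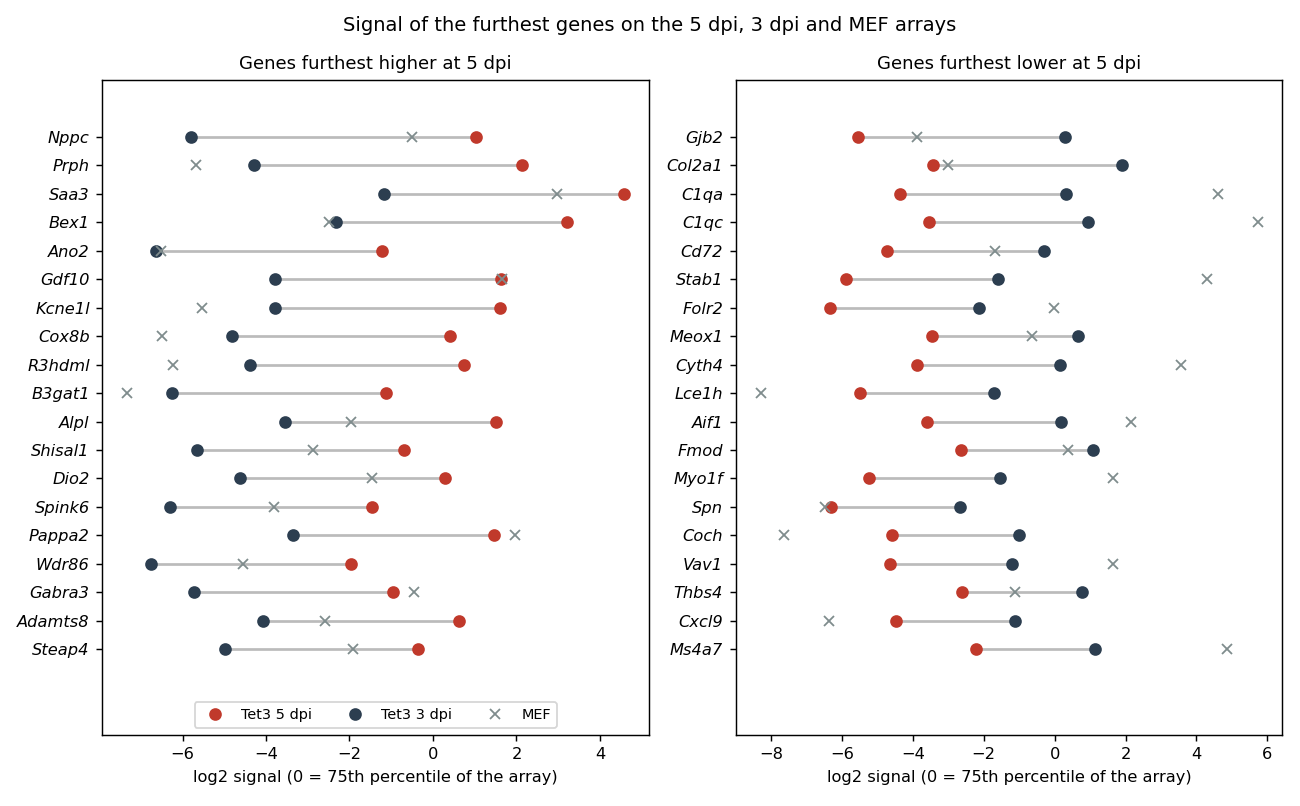
Log2 signal (0 at the 75th percentile of the array) of genes furthest higher, left, and furthest lower, right, at 5 dpi among genes above background on both arrays, with red points for Tet3 5 dpi, dark points for Tet3 3 dpi and crosses for MEF. Gdf10 returns to its MEF level (1.64 at 5 dpi and 1.66 in MEF), Prph and Bex1 exceed theirs, and on the right Gjb2 and Col2a1 are high at 3 dpi only while C1qa and C1qc lie below their MEF values on both arrays.

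Genes known to answer cAMP were higher at 5 dpi in part. Of 30 kept members of the cAMP-responsive and immediate early list, 11 were at least 2-fold higher and 3 at least 2-fold lower, with a median difference of 0.34. Sik1, the salt-inducible kinase that is a direct CREB target, lay at 0.48 in MEF, -0.31 at 1 dpi, -1.41 at 3 dpi, 1.65 at 5 dpi, 0.91 at 7 dpi and -0.93 in neurons. Its step of 3.06 (8.34-fold) ended on the highest of the 6 arrays. Ppargc1a, the coactivator PGC-1alpha of mitochondrial genes, was at -1.69 at 5 dpi against -3.91 at 3 dpi, a 4.66-fold difference. Its other probe differed by 1.01 on the log2 scale. Of the phosphodiesterases, Pde4b was at 1.67 at 5 dpi against -0.34 at 3 dpi, Pde3b at 1.03 against -0.82, Pde4d at 0.15 against -1.44 and Pde10a at 0.13 against -1.34. All 4 were thus 2.78-fold to 4.02-fold higher, and each of the 4 had declined between MEF and 3 dpi. The feedback repressor Crem was at -0.28 at 5 dpi against -1.71 at 3 dpi, though another of its probes differed by only 0.18. Nr4a2, the orphan receptor Nurr1, was at -0.55 at 5 dpi against -1.75 at 3 dpi and lay at -3.26 at 7 dpi. The phosphatase Dusp1 was 1.13 higher and the EGF-family ligand Areg 1.27 higher.

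Several other immediate early factors of the list differed by less than 2-fold. The differences were 0.36 for Fos, -0.63 for Fosb, -0.33 for Egr1, 0.20 for Nr4a1 and 0.10 for Junb. Egr2 lay at -2.40 at 5 dpi against -0.68 at 3 dpi, and Atf3, a stress factor, at -0.69 against 0.42. Arc, which works at synapses, differed by -1.36. These 3 were at least 2-fold lower at 5 dpi.

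CREB binds the cAMP response element, and the promoters of the list were searched for its full form, TGACGTCA, which is its own reverse complement, to show where the letters occur. RefSeq promoter windows of GRCm38.p6 were matched by symbol to 21 of the 30 kept members, and 250 bases upstream of each start were read. The element was found in 4 of 21 (Areg, Dusp1, Scg2 and Sst, 19.05%). Counted by gene in the same way, it was in 2.503% of the 14700 kept genes with a promoter. Counted by promoter, it was in 1.546% of all 32851. The 120-base windows around it are printed 5′ to 3′ on the gene's strand, with the element in capitals.
Areg, chr5:91139479-91139598, plus strand: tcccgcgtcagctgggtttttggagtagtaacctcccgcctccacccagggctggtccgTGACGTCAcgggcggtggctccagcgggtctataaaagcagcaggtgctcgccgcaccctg
Dusp1, chr17:26508552-26508671, minus strand: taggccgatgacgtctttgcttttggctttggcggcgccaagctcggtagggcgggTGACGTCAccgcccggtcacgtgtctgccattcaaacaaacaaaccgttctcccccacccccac
Scg2, chr1:79440031-79440150, minus strand: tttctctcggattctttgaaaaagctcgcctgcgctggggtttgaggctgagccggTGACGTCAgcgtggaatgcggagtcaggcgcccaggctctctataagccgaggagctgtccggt
Sst, chr16:23890845-23890964, minus strand: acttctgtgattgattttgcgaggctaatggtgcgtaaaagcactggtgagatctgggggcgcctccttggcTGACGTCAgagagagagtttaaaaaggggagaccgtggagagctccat
Of these genes Scg2 (1.51), Areg (1.27) and Dusp1 (1.13) were at least 2-fold higher at 5 dpi, and Sst, the somatostatin gene, differed by -0.06. The other 17 matched members had no such letters in the window. A match describes the sequence only.

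Peripherin and the neurofilament genes were far higher at 5 dpi. The neuronal cytoskeleton list, 20 kept members with a median difference of 0.35, had 7 that passed 2-fold upwards and 0 downwards. With dimmer genes left out (mean log2 level of the 5 and 3 dpi arrays under -1), 8 members remained on the list, 0 of them past 2-fold. That filter reads the same values as the difference, so it drops genes that rise from a low 3 dpi value, Prph among them. It therefore cannot show whether the step is confined to dim genes. The 7 were led by intermediate filaments. Prph lay at -5.68 in MEF, -4.49 at 1 dpi, -4.29 at 3 dpi, 2.14 at 5 dpi, 0.67 at 7 dpi and -2.28 in neurons, an 86.2-fold step that ended above the neuron array. Nefm, the medium neurofilament chain, was at -0.94 at 5 dpi against -4.79 at 3 dpi (14.4-fold) and the light chain Nefl at -0.68 against -4.37 (12.9-fold). Nefh, the heavy chain, was at -0.18 at 5 dpi and not above background on the 3 dpi, 1 dpi or MEF arrays, so it was at least 99.7-fold higher by this probe, while its other probe differed by 4.39 on the log2 scale. The reticulon Rtn1 was 2.50 higher, the microtubule protein Dcx (doublecortin) 2.11 by its brightest probe and 0.43 by another, and Mapt (tau) 1.49.

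Other members of the list stayed under 2-fold. Tubb3, the neuronal tubulin, lay at -0.85 in MEF, -0.50 at 1 dpi, 0.81 at 3 dpi, 1.74 at 5 dpi, 2.46 at 7 dpi and 4.09 in neurons, a difference of 0.93. Map2, of dendrites, was at -0.63 at 5 dpi against 0.09 at 3 dpi, Stmn2, of growth cones, at -2.30 against -1.78, and the vesicle motor Kif1a at 0.82 against 1.75. All 3 were lower at 5 dpi by less than 2-fold, though another probe of Kif1a differed by -1.60, and at 7 dpi lay higher again, at 1.32, 1.25 and 1.90.

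Among 21 other pan-neuronal genes 7 were at least 2-fold higher and 2 at least 2-fold lower, with a median of 0.43. Bex1 lay at -2.50 in MEF, -1.32 at 1 dpi, -2.33 at 3 dpi, 3.21 at 5 dpi, 2.37 at 7 dpi and 1.95 in neurons, 46.8-fold higher at 5 dpi than at 3 dpi by this probe and 4.99 higher on the log2 scale by its other probe. Dner, a neuronal Notch-binding receptor, was at 1.29 at 5 dpi against -2.42 at 3 dpi. The RNA-binding protein Elavl3 was at -3.25 at 5 dpi and not above background before, at least 12.1-fold higher. The splicing factor Rbfox1 was 2.72 higher, and 1.32 by its other probe. Lower were Snap25, the fusion protein of synaptic vesicles, at 2.16 at 5 dpi against 3.50 at 3 dpi, and Ndrg4 (-1.28). Of 27 synaptic vesicle genes, which include Snap25, 4 were at least 2-fold higher and 1 lower: Syt1, the calcium sensor of release, was at -2.08 at 5 dpi against -4.56 at 3 dpi, and Sv2b was 1.79 higher.

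Peptide genes gave a larger count. Of 25 kept granin, neuropeptide and processing genes 9 were at least 2-fold higher and 1 at least 2-fold lower, with a median of 0.54. Cck, cholecystokinin, lay at -3.20 in MEF, -1.08 at 1 dpi, 1.08 at 3 dpi, 4.23 at 5 dpi, 1.92 at 7 dpi and 2.68 in neurons, with its highest value at 5 dpi. Chgb, a granin of secretory granules, was at -3.14 at 5 dpi against -6.05 at 3 dpi, with an outlier-marked spot on 1 of these arrays, and the granin-like chaperone Scg5 at -0.52 against -2.98. The prohormone-cutting enzyme Pcsk1 was above background at 5 dpi and not at 3 dpi, at least 5.33-fold higher. Of the peptides, Nts (neurotensin) was 2.26 higher, Calca (CGRP) 1.84, Gal (galanin) 1.62, Vip 1.62 and the granin Scg2 1.51, whereas Tac1, the substance P precursor, was at -3.55 at 5 dpi against -2.03 at 3 dpi. Calca and Scg2 had been higher in MEF (-2.47 and -1.28) than at 5 dpi (-3.61 and -3.62).

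Of the regulators of neuronal fate, 23 factors were kept, 4 at least 2-fold higher and 2 at least 2-fold lower. This balance rested on the scaling, since quantile normalization and median centring each gave 2 higher and 3 lower and normexp background correction 2 and 2. Insm1, a zinc-finger factor of newborn neurons and endocrine cells, was not above background in MEF, at 1 dpi or at 3 dpi and lay at -0.55 at 5 dpi and 0.98 at 7 dpi, at least 78.6-fold higher across the step. Sox11, of young neurons, was at 1.08 at 5 dpi against -1.18 at 3 dpi, Pou4f1 (Brn3a), of sensory neurons, was 1.07 higher, and Hand2, of sympathetic neurons, 1.01. Ebf2 was 2.06 lower on the log2 scale, and Pou3f2 (Brn2) differed by -1.23 by its brightest probe and by 1.12 by another. Among factors used in other conversions, Neurog2 differed by 0.00 and Myt1l was not above background on either array.

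Notch ligands were among the progenitor genes past 2-fold, 6 of 20 being at least 2-fold higher and 1 at least 2-fold lower with a median of 0.54. Dll3 was at 0.73 at 5 dpi against -2.50 at 3 dpi, Dll1 at -1.18 against -3.80, and Jag2 was above background at 5 dpi and not at 3 dpi, at least 4.77-fold higher. The receptor Notch1 was at 1.49 at 5 dpi against -0.17 at 3 dpi, a difference of 1.66 by this probe and 0.55 by the other, and the lipid-binding radial glia gene Fabp7 at -0.15 against -2.95. Among targets of the pathway, Hey2 was 1.06 higher, and Hey1, Hes1 and Hes5 differed by 0.84, 0.33 and -0.11. Sox2, of neural stem cells, was at -4.67 at 3 dpi and not above background at 5 dpi, at least 4.27-fold lower.

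Channel genes passed 2-fold in both directions. Of 23 voltage-gated channel genes 6 were higher and 2 lower at 2-fold, among them the potassium channel Kcnh2 (2.17), the calcium channel Cacna1e (-2.43), and Kcnc1 and the sodium channel Scn8a, whose probes disagreed (2.14 and -0.28, and 1.99 and 0.07). Of 27 axon guidance genes 4 were higher and 0 lower, among them the semaphorin Sema3d (1.63) and the netrin receptor Dcc, with 1.52 by one probe and -1.13 by another. Of 19 neurotrophins and their receptors 4 were higher and 1 lower: the sorting receptor Sort1 (1.65, and 0.42 by its other probe), the GDNF co-receptor Gfra1 (1.25), the ligand Ntf3 (1.08), the LIF receptor Lifr (1.07, and -0.37 by another probe) and the p75 receptor Ngfr (-1.06). The summed linear level of 8 neuron markers, as log2, lay at 1.62 in MEF, 3.00 at 1 dpi, 3.86 at 3 dpi, 3.26 at 5 dpi, 4.24 at 7 dpi and 6.43 in neurons, with 8 of the 8 above background at 5 dpi and 7 at 3 dpi. Such a sum follows its brightest probes. The brightest was that of Snap25 from MEF to 5 dpi, that of Tubb3 at 7 dpi and that of Stmn2 in neurons. Members of the sum did not move together. Dcx, Elavl3, Nefm, Syt1 and Tubb3 were higher at 5 dpi than at 3 dpi, and Map2, Snap25 and Stmn2 lower.

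The enzymes of sterol synthesis were nearly all lower at 5 dpi. Of 19 kept enzymes, 18 were at least 2-fold lower at 5 dpi and 0 higher, with a median difference of -1.69 beside a background of 4.55% of genes that low. Lss, lanosterol synthase, lay at -1.02 in MEF, -0.96 at 1 dpi, 0.97 at 3 dpi, -1.58 at 5 dpi, -1.17 at 7 dpi and -1.73 in neurons. Cyp51, the next enzyme of the pathway, lay at -0.29, -0.18, 1.22, -1.21, -0.19 and -0.50 on the same arrays. Both were highest at 3 dpi, and at 5 dpi lay below MEF, 5.84-fold and 5.42-fold lower than at 3 dpi. Nsdhl was at -0.28 at 5 dpi against 1.81 at 3 dpi and Hmgcs1, which makes HMG-CoA, at 2.87 against 3.91.

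Of 19 kept genes of cholesterol uptake, control and efflux 2 were at least 2-fold higher and 6 at least 2-fold lower. The lower ones included the sterol carrier Stard4 (-1.36), Scarb1, the HDL receptor (-1.25), the SREBP anchor Insig1 (-1.18) and Srebf2, the gene for SREBP2 itself (-1.17). Higher were Abca1, which exports cholesterol and is a known target of the oxysterol receptor LXR, at 1.89 at 5 dpi against -0.40 at 3 dpi, and the lipoprotein lipase Lpl at 3.74 against 0.29. Both had been higher still in MEF (3.57 and 4.58). Of 16 fatty acid genes 5 were lower and 0 higher: Elovl6 (-1.47), Fads1 (-1.26), Fasn (-1.16), Scd1 (-1.10) and Acly (-1.04). The sterol response element, TCACNCCAC on either strand, was searched for in the same 250-base windows. It was found in 1 of 14 matched synthesis genes (7.143%) and in 0 of 12 matched uptake and control genes. Beside these, it was in 1.245% of the 14700 kept genes with a promoter and in 1.053% of all promoters, figures that cover this spelling only. The synthesis gene that held it was Hmgcs1, shown with the element in capitals.
Hmgcs1, chr13:119690158-119690277, plus strand: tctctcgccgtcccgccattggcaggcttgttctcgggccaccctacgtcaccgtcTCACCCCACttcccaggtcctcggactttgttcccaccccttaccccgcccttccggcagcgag

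**Figure D3:**
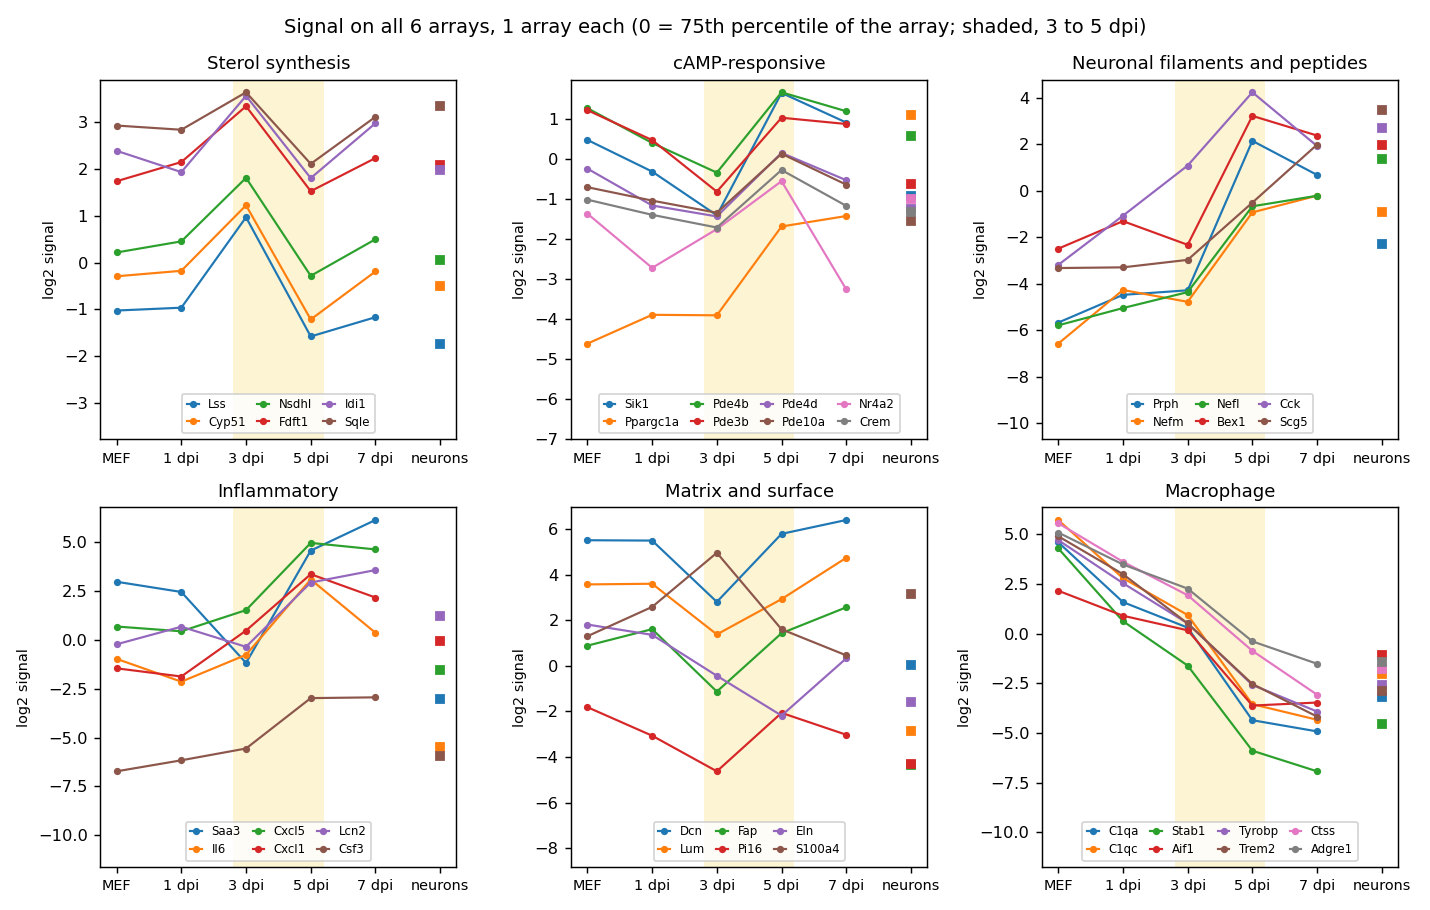
Log2 signal (0 at the 75th percentile of the array) of selected genes on the arrays of MEF, Tet3 1, 3, 5 and 7 dpi, joined by lines, and primary neurons as squares, 1 array each, with the interval from 3 to 5 dpi shaded. Sterol genes peak at 3 dpi and drop (Lss at -1.58 at 5 dpi against 0.97 at 3 dpi), and macrophage genes decline over every interval up to 5 dpi. The 8 cAMP genes drawn are all higher at 5 dpi than at 3 dpi, but were picked from a list of 30 kept members. Of those 30, 11 were at least 2-fold higher and 3 at least 2-fold lower, and none of the 3 is drawn. The neuronal and inflammatory panels likewise draw only genes that were higher at 5 dpi. At 2-fold, 10 of 25 kept inflammatory genes were higher and 2 lower, and of 25 granin and peptide genes 9 and 1. Of 21 pan-neuronal genes 7 were higher and 2 lower, and of 20 cytoskeleton genes 7 and 0. No lower member is drawn in these panels.

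Inflammatory genes held the highest list median after the small adipocyte list, 0.82. Of 25 kept members 10 were at least 2-fold higher and 2 at least 2-fold lower. Saa3 lay at 2.98 in MEF, 2.46 at 1 dpi, -1.18 at 3 dpi, 4.58 at 5 dpi, 6.15 at 7 dpi and -3.03 in neurons, 54.1-fold higher across the step. Il6, the acute-phase cytokine, lay at -0.97, -2.14, -0.76, 3.10, 0.37 and -5.50 on the same arrays and was 14.5-fold higher. The neutrophil chemokines Cxcl5, Cxcl3 and Cxcl1 were at 4.97 at 5 dpi against 1.53 at 3 dpi, at -0.34 against -3.93, and at 3.37 against 0.48. Lcn2, an iron-siderophore binder, was 3.30 higher and Csf3, the granulocyte factor G-CSF, 2.58. Il6 and Cxcl3 were highest at 5 dpi, Saa3 and Lcn2 at 7 dpi. Tnf was at -4.82 at 5 dpi against -2.56 at 3 dpi and Ccl5 at 0.48 against 2.39, and Ptgs2, the inducible cyclooxygenase, hardly differed (-0.10).

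Among 27 interferon-stimulated genes, whose median difference was 0.36, 6 passed 2-fold upwards and 1 downwards. Oas2, a sensor of double-stranded RNA, was at 1.24 at 5 dpi against -0.19 at 3 dpi, Apol9b, Oasl1 and Ifi27l2a were 1.18 to 1.38 higher, and Cxcl10, which shares a receptor with Cxcl9, was at 1.50 against 0.48. Cxcl9 went the other way, at -4.49 at 5 dpi against -1.13 at 3 dpi and at -6.36 in MEF. Among 16 antigen presentation genes 1 was higher and 2 lower, with differences of -1.69 for the invariant chain Cd74, -1.51 for the peptide loader Tapbp and 1.50 for the class II chain H2-Ab1.

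The fibroblast list held members in both directions, with 10 of 30 members at least 2-fold higher, 3 at least 2-fold lower and a median of -0.09. Dcn, the small proteoglycan decorin, lay at 5.51 in MEF, 5.49 at 1 dpi, 2.81 at 3 dpi, 5.79 at 5 dpi, 6.40 at 7 dpi and 0.03 in neurons. After the 7.91-fold step it thus lay within 2-fold of its MEF value. Fap, the fibroblast activation protease, was at 1.43 at 5 dpi against -1.13 at 3 dpi, Fbln1 (fibulin 1) at 2.25 against 0.29, Lum (lumican) at 2.93 against 1.38, and Pi16, of adventitial fibroblasts, at -2.06 against -4.62. These 4 also had their lowest Tet3 value at 3 dpi. The opposite shape was that of S100a4, a calcium-binding protein, at 1.30 in MEF, 2.59 at 1 dpi, 4.96 at 3 dpi, 1.60 at 5 dpi, 0.46 at 7 dpi and 3.16 in neurons, 10.2-fold lower across the step. The elastic fibre genes Eln (elastin) and Fbln5 were 1.75 and 1.63 lower on the log2 scale. Of 22 collagen chains 1 was higher and 5 lower. The higher chain was Col14a1, with 1.245 by one probe and -0.07 by the other. Lower were Col2a1 (-5.34), Col8a1 (-1.43), Col8a2 (-1.39), Col6a3 (-1.24) and Col11a1 (-1.17), while the main fibrillar chains Col1a1 and Col3a1 differed by 0.38 and 0.74. The 7 fibroblast markers summed to 8.77 at 5 dpi and 8.24 at 3 dpi on the log2 scale, with all 7 above background on both arrays.

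Of 25 mesenchymal transcription factors 4 were at least 2-fold lower and 0 higher. These were Meox1, its relative Meox2 (at -1.28 at 5 dpi against 0.58 at 3 dpi), Foxd1 (at -2.41 against 0.51) and Tcf21, not above background at 5 dpi and at least 7.72-fold lower. Prrx1, Twist1 and Snai2 differed by 0.32, -0.12 and -0.01. Smooth muscle genes hardly moved, with 0 of 20 higher and 1 lower, the adhesion protein Vcl (-1.31). Acta2, smooth muscle actin, was at 6.26 at 5 dpi against 6.08 at 3 dpi, with an outlier-marked spot. Of 21 YAP and serum response factor targets 1 was higher, the cardiac repeat protein Ankrd1 (2.70), and 3 were lower, Nt5e (-2.04), Axl (-1.46) and Tead4 (-1.38). In the skeletal and cardiac list 5 of 24 were higher and 2 lower: Actc1, cardiac actin, was at 1.35 at 5 dpi against -1.35 at 3 dpi, the slow troponin Tnnt1 at 1.90 against -0.55, and the myosins Myh1 and Myh8 differed by -2.02 and -1.77 (0.30 by the other Myh8 probe), while Myod1 and Myog differed by 0.45 and -0.05.

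The ligands Bmp7 and Gdf6 and the Id genes were higher at 5 dpi. Among 27 TGF-beta and BMP genes, with a median difference of 0.53, 7 passed 2-fold upwards and 3 downwards. Bmp7 was at -1.32 at 5 dpi and not above background at 3 dpi, at least 46.2-fold higher, and Gdf6 was at 0.34 against -2.10. The Id genes, inhibitors of helix-loop-helix factors and BMP targets, were all higher: Id2 at 2.95 at 5 dpi against 0.77 at 3 dpi, Id4 at 2.50 against 0.37, Id1 at 3.52 against 1.90 and Id3 at 4.29 against 3.15. Lower were the ligands Tgfb3 (-1.51) and Tgfb1 (-1.33) and the BMP antagonist Grem1 (-1.04), while the antagonist Nog was 1.36 higher. Of 27 Wnt genes 7 were higher and 1 lower. The ligand Wnt4 was at 0.85 at 5 dpi against -2.42 at 3 dpi, and the feedback genes of the pathway Nkd1, Dkk1 and Axin2 were 2.17, 1.66 and 1.50 higher. Rspo2, which amplifies Wnt signals, was at -2.23 at 5 dpi against 0.84 at 3 dpi.

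**Figure D4:**
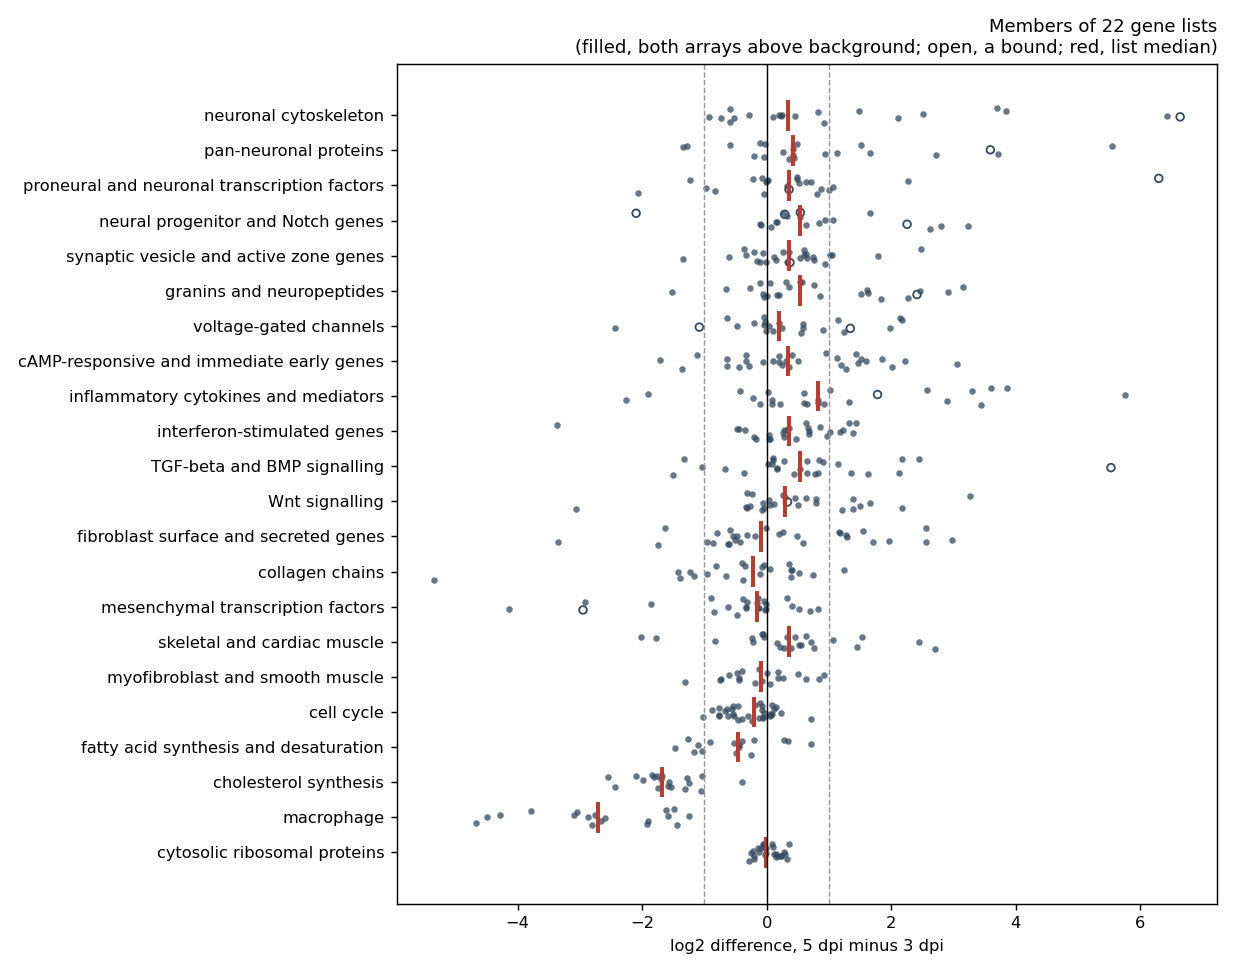
Log2 difference, 5 dpi minus 3 dpi, of each kept member of 22 gene lists (filled points, above background on both arrays; open points, a bound because 1 array was not), with a red bar at the list median and dashed lines at 2-fold. The cholesterol synthesis and macrophage lists lie almost wholly past the lower 2-fold line (medians -1.69 and -2.71), ribosomal proteins lie close to 0, and the neuronal lists have a few far members around medians of 0.19 to 0.54.

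The furthest list median was that of macrophage genes, -2.71, with 18 of 18 kept members at least 2-fold lower at 5 dpi. C1qa, a chain of complement C1q, lay at 4.60 in MEF, 1.59 at 1 dpi, 0.31 at 3 dpi, -4.35 at 5 dpi, -4.91 at 7 dpi and -3.18 in neurons, 25.3-fold lower across the step. The signalling adaptor Tyrobp, the receptor Trem2 and the surface protein Adgre1 were 3.10, 3.05 and 2.65 lower on the log2 scale. Probes of Csf1r, the receptor for macrophage growth factor, disagreed, between -1.61 and 2.39, and those of the integrin Itgam lay between -1.25 and -0.09. Over 8 macrophage markers the summed level, as log2, was 8.17 in MEF, 5.63 at 1 dpi, 4.11 at 3 dpi, 1.57 at 5 dpi, 0.96 at 7 dpi and 1.19 in neurons, so it was lower on each successive array up to 7 dpi. All 8 were above background on both the 5 and the 3 dpi arrays. Tnf, Ccl5 and Cd74 above, which macrophages also express, were lower as well, and the part of macrophages in those differences was not tested.

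Markers of other cell types gave smaller counts. Of 10 endothelial genes 0 were higher and 4 lower, among them the receptor Flt1 (-2.06) and the junction protein Cdh5 (-1.31) besides Emcn and Esam. The 5 endothelial markers summed to 1.62 at 5 dpi and 1.71 at 3 dpi, with 4 and 5 of them above background. This endothelial sum is mostly Kdr, at 1.30 at 5 dpi and 1.22 at 3 dpi. Pecam1, Cdh5 and Emcn were lower at 5 dpi, and Tek was higher. Of 13 Schwann and neural crest genes 5 were lower and 0 higher, including the cadherin Cdh19 (-2.51) and the crest factor Foxd3 (-1.59). Among 8 adipocyte genes 4 were higher and 0 lower, with a median of 0.92: Lpl, the fatty acid carrier Fabp4 (2.25), Cebpb (1.38), a factor that cAMP also induces, and Pparg (1.01). The 3 adipocyte markers summed to 2.12 at 5 dpi and -0.10 at 3 dpi, with 2 of 3 above background on each array. That sum is nearly all Fabp4, at 2.11 at 5 dpi and -0.13 at 3 dpi. Plin1 was dim, at -5.21 and -6.05, and Adipoq was not above background on either array. In the cartilage and bone list of 12, Alpl and the bone sialoprotein Ibsp (2.63) were higher and Col2a1, Col10a1 (-2.32) and Spp1 (-1.10) lower. In the epithelial list of 13, Grhl2 (2.76) and Krt8 (2.53) were higher and Krt7 (-2.66), Krt19 (-1.62), Krt18 (-1.59) and Cldn3 (-1.24) lower.

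Growth and housekeeping genes mostly stayed within 2-fold. Of 34 cell cycle genes 0 were higher and 1 lower at 2-fold, Mcm6 of the replicative helicase, at 1.88 at 5 dpi against 2.90 at 3 dpi, and the list median was -0.21. Mki67, the antigen of cycling cells, differed by -0.18. Of 22 p53 and arrest genes only Cdkn1c, the imprinted inhibitor p57, passed, at 4.41 at 5 dpi against 2.13 at 3 dpi, and Cdkn1a (p21) differed by 0.16. Imprinted genes counted 4 higher of 15, Peg10 (2.66), Cdkn1c, Zim1 (1.05) and Peg3 (1.04). Among 18 glucocorticoid and FoxO targets 5 were higher and 3 lower: the muscle ubiquitin ligase Trim63 was at -1.66 at 5 dpi against -4.87 at 3 dpi, and Txnip, the thioredoxin inhibitor that follows glucose, at -2.88 against 0.13. None of 27 oxidative phosphorylation subunits and none of 26 ribosomal protein genes passed 2-fold, and Gapdh and Actb differed by 0.30 and 0.48. In the unfolded protein list 2 of 26 were higher and 2 lower, and in the glycolysis and hypoxia list 1 of 29 was higher, the oxygen sensor Egln3 (1.47), and 1 lower, the aldolase Aldoc (-1.05).

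Several of the differences rest on the 3 dpi array standing apart from all others. Of the 1501 higher genes, 139 (9.26%) were at least 2-fold lower at 3 dpi than on each of the other 5 arrays, among them Folh1, Gabra3, Serpina3n, Steap4 and Npy2r. Of the 845 lower genes, 117 (13.8%) were at least 2-fold higher at 3 dpi than on all 5 others, led by Lce1h, Col2a1, Gjb2, Cxcl9 and Emcn. The 5 dpi array stood at least 2-fold above all others for 119 genes, 7.93% of the higher ones, and below all others for 20, 2.37% of the lower ones. Above were Asb5 (at 0.50 at 5 dpi against -3.39 at 3 dpi), Cxcl3, Krt23, the muscle bisphosphatase Fbp2, the prolactin-family genes Prl8a6 and Prl8a9, Padi3 and Il6. Below were Txnip, Chil1, Fam180a, Fmod, Grik1, Slc36a1, whose other probe differed by 0.01, Gstt1 and Prkcb. Over the same 18566 genes the counts above and below all others were 442 and 233 for MEF, 20 and 11 for 1 dpi, 152 and 53 for 7 dpi, and 2243 and 1385 for neurons. With 1 culture a time, the state of a single culture and the step itself cannot be told apart.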

How the data were processed

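RNA of 6 samples was labelled with Cy3 and hybridised to 1 Agilent mouse array each. The submitters' processing notes name Agilent Feature Extraction 11.0.1.1 for reading each spot's intensity, and per the file headers the processed intensity had its background subtracted. Log2 values in the series table were deposited with every array's 75th percentile at 0, scaled by the authors in a step that the sources used here do not name. Its medians were -2.90 at 5 dpi and -3.00 at 3 dpi, and it correlated with scanner values at r of 0.999987 or more. The members and gene lists were chosen with earlier results of these data known.

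A probe with several spots counted as well above background if over 50% of them were. Accessions paired 27228 probes (69.1%) with 20655 genes of the RefSeq table, and the unnamed 9720 kept probes (757 higher and 236 lower at 2-fold) were not used further. A gene was read from its kept probe with the highest mean over the 6 arrays. Where 1 array alone was above background, the difference is a bound: the bright value minus the higher of the lowest value well above background on the other array and the probe's own value there. Threshold counts used 2-fold and 4-fold. The genes named are the 20 furthest each way with signal on both arrays and no outlier or non-uniform spot, the 6 furthest bounds each way, up to 6 members per list plus members needed for a role, 20 chosen genes, and the 8 furthest beyond all other arrays each way; predicted genes and clones were left out of the rankings. Values of a few further genes chosen this way are left out and not reported here. Genes shown as standing apart at 3 dpi were added after their values were seen.

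Alternatives were scanner signals, normexp (offset 50, run on the spots' median signal), quantile normalization, median centring, a 75th percentile over probes seen on all arrays, both arrays above background, no filter, brighter genes only (log2 level of -1 or more), the mean over probes, 4-fold, and list members measured on both arrays. Work was done in Python 3.11.15, pandas 2.3.3, numpy 2.4.6 and matplotlib 3.10.9, with normexp in limma 3.58.1 under R 4.3.3. The number of arrays limits the precision.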

Additional observations from a re-analysis of the deposited data

How the results depend on the processing

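The check by gene covered 330 genes. These were the ranked genes, those furthest beyond all other arrays, the 20 chosen genes and the 6 members of each list with the largest difference. Other members named above for a role were not checked by gene. Among the genes checked, none past 2-fold changed direction under the alternatives run. The list medians that changed sign under at least 1 alternative were 9 small ones, between -0.09 and 0.19. The counts of 1501 higher and 845 lower genes moved by over 1.5 times under 3 of them: normexp background correction gave 508 lower genes, brighter genes only gave 411 higher and 302 lower, and the 4-fold threshold 385 and 193. The neuronal cytoskeleton median of 0.35 was 0.14 among brighter genes, and the macrophage median of -2.71 was -2.46 with normexp and -1.62 among brighter genes (7 members). The brighter filter reads the 5 and 3 dpi values being compared and can drop a gene for a low value on 1 of them, as it does C1qa. Medians and counts among brighter genes are thus not independent of the step. The cause of the difference with normexp was not tested. The granin and neuropeptide median of 0.54 was 0.06 among brighter genes (6 members) and 0.33 with no filter, the progenitor and Notch median of 0.54 was 0.30 among brighter genes, and the adipocyte median of 0.92 was 1.81 there (4 members). Medians of the neuronal fate regulators (0.36), voltage-gated channels (0.19) and skeletal and cardiac muscle (0.35) rose to 0.81, 0.56 and 1.06 among brighter genes. That of cartilage and bone (-0.37) was -1.10 there, and the endothelial median of -0.43 was -0.13 with normexp. The moved medians given are not the full set. Of the cytoskeleton genes 0 of 8 brighter members passed 2-fold, against 7 of 20. The neuronal fate regulators turned to 2 higher and 3 lower with quantile normalization and with median centring, against 4 and 2. The erythroid list had no member among brighter genes. Of the 330 genes checked, 237 were past 2-fold, and 192 of these stayed past it under every alternative that still held the gene. An alternative that filtered a gene out was not counted for it, and the 4-fold threshold was not part of this count. No paired analysis was possible because there is 1 array for each time point, and leaving out an array leaves no comparison. Signal near background limits the dim genes, whose differences are bounds where 1 array fell below it.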
